A study of Mus musculus with 2 samples.

Results

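Chemokine receptors are the G protein-coupled receptors by which T cells read gradients of chemokines and enter particular tissues, and the set that a helper T cell displays changes as it differentiates. Th17 cells produce IL-17 and are known for CCR6, the receptor for CCL20. STAT3 and STAT5 are transcription factors that are phosphorylated downstream of cytokine receptors, STAT3 after IL-6 and STAT5 after IL-2, and both are known to bind palindromes of the form TTC, 3 bases of any kind, GAA.

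The genes described are 8 chemokine receptor genes: Ccr4, Ccr6, Ccr7, and a group on chromosome 9 that holds Ccr9, Cxcr6, Ccr1, Ccr3 and Ccr2. They were taken as 4 windows of the mm9 genome, with positions counted from 1. The windows ran on chromosome 9 from 114310000 to 114430000 (Ccr4), on chromosome 17 from 8400000 to 8480000 (Ccr6), on chromosome 11 from 98950000 to 99040000 (Ccr7) and on chromosome 9 from 123650000 to 124060000 (the receptor cluster). Together they covered 700 kb and held 115 of the 86150 sites found over the genome, 27 of them in the Ccr4 window, 13 in the Ccr6 window, 21 in the Ccr7 window and 54 in the receptor cluster.

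The data were 2 chromatin immunoprecipitation sequencing libraries, 1 for STAT3 and 1 for STAT5, the STAT5 one made with antibodies to STAT5A and to STAT5B combined. Both came from wild type C57BL/6J CD4 T cells of spleen and lymph nodes, sorted as naive (CD44-, CD62L+) and cultured for 3 days with plate-bound antibody to CD3, antibody to CD28, TGF-beta at 2 ng/ml, IL-6 at 20 ng/ml and an antibody to IL-4. The labels also list an antibody to IL-2 in this culture, though in IU/ml, a unit usual for the cytokine itself. Cells of the STAT3 library were restimulated with IL-6 (40 ng/ml) and cells of the STAT5 library with IL-2 (200 IU/ml), both for 30 minutes, so antibody and cytokine differed together and their shares in any difference cannot be told apart. Ages and numbers of mice were not in the labels. Expression was not measured, and the Th17 label could not be checked against marker genes here.

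The STAT3 library held 20784388 nuclear reads and the STAT5 library 17963766, each read at its own position and strand. Read 5′ ends were moved 50 bp in the 3′ direction and counted in 200 bp windows at steps of 50 bp, scaled to reads per 1000000 nuclear reads (RPM). A site is a place where a region of local read enrichment was called in at least 1 library. Its values are the reads of both libraries in the same 200 bp, and its ratio is STAT3 RPM over STAT5 RPM with an exact 95% interval. With 1 library per antibody there is no replicate check, and every interval covers counting error only. To be called higher with one antibody, a site needed its whole interval beyond 2-fold, which compares these libraries and not the conditions. Since each position and strand held at most 1 read, 200 bp could hold at most 400, and a site with every position taken in both libraries would have a ratio of 0.864 whatever lay beneath. This ceiling pulls the ratios of tall sites together.

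All 4 windows were rich in reads of both antibodies, and in all 4 the STAT5 library had the higher RPM. The Ccr7 window was the densest, with 4.93 STAT3 and 6.20 STAT5 RPM per kb, which is 11.6 and 14.6 times the genome mean of 0.424 RPM per kb (counting only 1 kb bins with reads). The Ccr4 window followed with 2.11 STAT3 and 4.23 STAT5 RPM per kb, then the Ccr6 window with 1.83 and 2.95, and the receptor cluster with 1.53 and 1.74. The order of the windows was thus the same with either antibody. In the receptor cluster 29.5% of the 2050 adjoining 200 bp windows held no read of either library, and a single stretch from 123782353 to 123832321, 49969 bp long, was without any read. In the Ccr6 window this share was 15.2%, in the Ccr4 window 3.00% and in the Ccr7 window 2.67%. Levels per kb of the cluster are lowered by that stretch and by shorter ones of 6392 to 7900 bp. Those of the Ccr6 window are lowered by a stretch from 8408663 to 8416171, 7509 bp long. Ratios are not touched by stretches without reads.

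**Figure D1:**
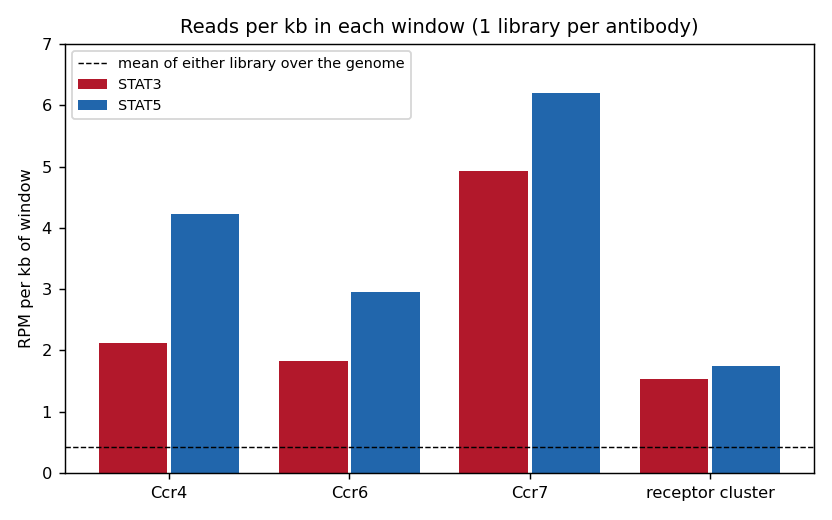
RPM per kb of each window (y axis), STAT3 in red to the left of STAT5 in blue, 1 library each, with the mean of either library over the genome, 0.424 RPM per kb, as a dashed line. Bars have no error, as there is 1 library per antibody. The Ccr7 window stands highest and the gap between the antibodies is widest in the Ccr4 window.

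The balance between the antibodies differed from window to window. The ratio of STAT3 to STAT5 was 0.499 in the Ccr4 window (5274 STAT3 and 9126 STAT5 reads, interval 0.483 to 0.517), 0.619 in the Ccr6 window (3039 and 4240 reads, 0.591 to 0.649), 0.796 in the Ccr7 window (9228 and 10020 reads, 0.774 to 0.819) and 0.881 in the receptor cluster (13042 and 12793 reads, 0.860 to 0.903). No pair of these intervals overlapped, so the order of the windows by ratio exceeds counting error. Over 18676 bins of 100 kb with at least 500 reads the median ratio was 1.23, and only 1.23% of them lay below the ratio of the Ccr4 window, 3.93% below that of the Ccr6 window, 11.5% below that of the Ccr7 window and 17.0% below that of the cluster. Bins with at least 10 sites had a lower median, 0.921 (quartiles 0.751 and 1.10, 3026 bins), and 3.67%, 11.4%, 30.7% and 43.6% of these lay below the 4 windows in the same order. The windows themselves were 80 to 410 kb long. The Ccr4 window thus stood low even among site-rich bins, and the receptor cluster near their middle. The scale matters here: with libraries scaled on the 10 kb bins that held no region, where STAT3 values become 0.722 of those in RPM, the ratios were 0.361, 0.448, 0.575 and 0.637 in the same order of windows.

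The windows were crowded with sites: 22.5 per 100 kb around Ccr4, 16.2 around Ccr6, 23.3 around Ccr7 and 13.2 in the cluster, against 3.65 over the genome. Regions were called 91 times with STAT3 and 96 times with STAT5. Of the 115 sites 71 were regions with both antibodies (61.7%, against 47.7% of all sites in the genome), 20 with STAT3 only (17.4%, against 18.2%) and 24 with STAT5 only (20.9%, against 34.1%). A missing region did not mean missing reads: the 20 STAT3-only sites had 5 to 208 STAT5 reads (median 38.5), and the 24 STAT5-only sites had 1 to 92 STAT3 reads (median 23.5). Sites were also tall. With STAT3 8 of the 115 sites lay at or above the 99th percentile of all sites (0.994% of all sites do) and 36 at or above the 90th (9.92%), and with STAT5 7 (0.982%) and 42 (9.93%).

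More than 2-fold higher with STAT3 were 5 of the 115 sites (4.35%, against 3.18% of all sites in the genome), and with STAT5 38 (33.0%, against 27.7%), while 72 were called higher with neither. Both shares are close to the genome's, and the windows differed among themselves. In the Ccr4 window 0 of 27 sites were higher with STAT3 and 13 with STAT5 (48.1%), in the Ccr6 window 0 and 6 of 13 (46.2%), in the Ccr7 window 0 and 3 of 21 (14.3%), and in the receptor cluster 5 and 16 of 54 (29.6%). All 5 sites higher with STAT3 lay in the cluster. Other settings also placed single sites elsewhere. Calling against the genome-wide mean alone added 1 in the Ccr6 window and 1 in the Ccr7 window, a shift of 75 bp or scaling to the median site added 1 in the Ccr6 window, and thinning STAT3 to the STAT5 depth added 1 in the Ccr7 window. A limit of 1.5-fold added 1 around Ccr4, 1 around Ccr6 and 2 around Ccr7. In the cluster, with scaling by bins without a region none was called higher with STAT3 and 18 were called higher with STAT5.

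**Figure D2:**
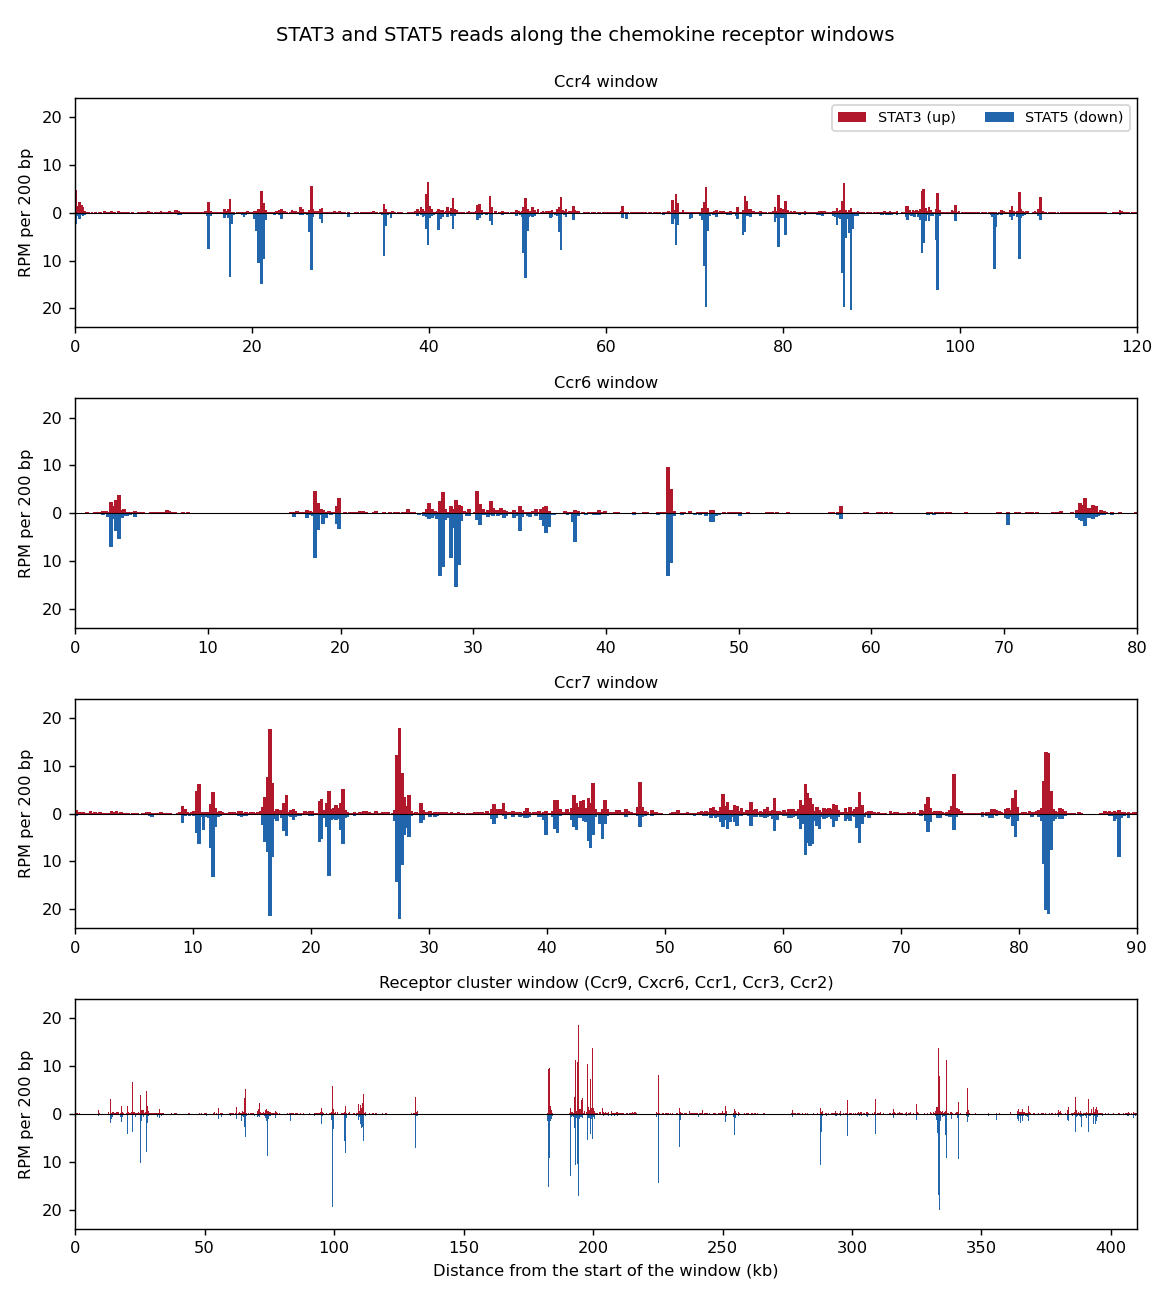
RPM in adjoining 200 bp windows (y axis) along each of the 4 windows (x axis, kb from the start of the window), with STAT3 in red upward and STAT5 in blue downward on the same scale. STAT5 peaks are taller than STAT3 peaks over most of the Ccr4 window, the tallest peaks of the Ccr7 window reach similar heights with both, and a blank of 49969 bp is seen in the cluster.

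Reads of both antibodies tended to lie in the same places along the windows. Over adjoining 200 bp windows, Spearman's rho between STAT3 and STAT5 reads was 0.681 in the Ccr4 window (600 windows), 0.736 in the Ccr6 window (400), 0.820 in the Ccr7 window (450) and 0.715 in the cluster (2050). Pearson's r of the read counts, without logs, was 0.742, 0.778, 0.913 and 0.775 in the same order. These windows share libraries, mappability and neighbouring fragments, so the values are a description. At the 51 sites with regions of both antibodies and at least 50 reads of each, the median fragment position of STAT3 and of STAT5 lay a median of 11 bp apart, and within 25 bp at 39 of them. In the Ccr7 window all 10 such sites lay within 25 bp, and in the Ccr4 window 8 of 15. Both positions were taken within the same 400 bp around a shared summit, so summits further apart could not show. At the cluster site from 123983101 this distance was 15 bp, though the highest STAT3 window began 450 bp below that of STAT5.

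CCR6 is the receptor that marks Th17 cells and draws them to CCL20 at mucosal surfaces. The RefSeq promoter table on GRCm38.p6 lists 2 starts for Ccr6, and the upstream one holds this palindrome at 2 places, TTCAAAGAA and TTCCAAGAA, which begin 157 and 120 bases before the listed start. Both promoters are shown because they are the only pair of alternative starts among the members, and they differ in this motif, which is set in capitals:
Ccr6 upstream start, chr17:8235793-8236092, plus strand: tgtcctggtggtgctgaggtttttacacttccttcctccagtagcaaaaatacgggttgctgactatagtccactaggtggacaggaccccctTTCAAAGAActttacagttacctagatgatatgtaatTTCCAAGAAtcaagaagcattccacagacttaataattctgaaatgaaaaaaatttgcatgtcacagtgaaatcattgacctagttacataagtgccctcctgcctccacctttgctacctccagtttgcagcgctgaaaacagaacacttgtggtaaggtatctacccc
Ccr6 downstream start, chr17:8242276-8242575, plus strand: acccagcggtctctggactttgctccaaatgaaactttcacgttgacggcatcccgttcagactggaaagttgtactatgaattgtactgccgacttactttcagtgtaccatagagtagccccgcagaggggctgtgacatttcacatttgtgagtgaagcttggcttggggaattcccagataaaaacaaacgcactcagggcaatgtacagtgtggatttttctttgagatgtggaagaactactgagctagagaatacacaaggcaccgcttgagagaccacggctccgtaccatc
The motif is its own reverse complement, so 1 search covers both strands. It was found in 1 of the 7 members with an entry (Ccr6; Ccr7 was not matched), against 9.55% of the 27025 genes in this table, whose entries are 300 bases long. A match is a description of letters. The promoter table is on GRCm38 and the reads are on mm9, positions were not converted, and so no site below is placed relative to a gene's start.

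In the Ccr6 window the tallest site stood apart, and it was tall with both antibodies. The site 8444551-8445050 held 254 reads of STAT3 and 348 of STAT5 (12.2 and 19.4 RPM), a ratio of 0.631 (0.534 to 0.744). It ranked 809th by STAT3 reads and 1014th by STAT5 reads among all 86150 sites. No other site of the window passed 113 STAT3 reads, while STAT5 passed 300 at a further pair of sites.

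Those 2 sites were neighbours, 1200 bp apart, and both were higher with STAT5. The site from 8427401 to 8427800 had 107 STAT3 and 320 STAT5 reads, an RPM 3.46 times as high with STAT5 (2.77 to 4.35). The site from 8428601 to 8428950 was a STAT5-only region with 25 STAT3 and 302 STAT5 reads, 14.0 times as high with STAT5 (9.29 to 21.9). The second value depends on where reads are counted. STAT3 reached 59 reads in a 200 bp window of the same site that began 100 bp earlier, and in 400 bp the counts were 94 and 471.

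The other sites of the Ccr6 window that the naming rule picked were lower. The site from 8417951 to 8418350 had 113 STAT3 and 185 STAT5 reads (ratio 0.528, interval 0.414 to 0.671) and was called higher with neither. Next to each other lay the sites from 8402501 to 8402900, with 50 and 127 reads (0.340, 0.240 to 0.476, higher with STAT5), and from 8403001 to 8403400, with 104 and 124 reads (0.725, 0.553 to 0.948). Their windows were 500 bp apart, so the balance between the antibodies changed over a short distance. Counted in 400 bp, the site from 8402501 had a ratio of 0.376 and was no longer called. Among sites chosen after their values were seen, that from 8430201 to 8430500 leaned to STAT3, with 104 STAT3 and 32 STAT5 reads (2.81, 1.87 to 4.32). Its interval reached below 2, and in 400 bp its ratio was 1.88. The site from 8470101 to 8470500, also chosen after its values were seen, had 3 STAT3 and 45 STAT5 reads (0.0576, 0.0115 to 0.179). In 10 kb bins, 5 of 8 had intervals wholly on the STAT5 side of a ratio of 1, and 0 on the STAT3 side.

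CCR4 binds CCL17 and CCL22 and takes part in the entry of helper T cells into skin. Its window was the one most tilted to STAT5, with a median site ratio of 0.403 (range 0.00815 to 2.31) against 0.739 over all sites in the genome. The tilt was spread along the window: 9 of 12 bins of 10 kb lay wholly on the STAT5 side of 1, and the 2 on the STAT3 side were the outermost ones, with 333 STAT3 and 174 STAT5 reads at the lower end (1.65, 1.37 to 2.00) and 114 and 57 at the upper end (1.73, 1.25 to 2.42). Reads of each library outside its own regions leaned less, with a ratio of 0.752 (0.714 to 0.792). These can include reads at sites called only with the other antibody. The same ratio was 0.877 in the Ccr6 window, 0.945 in the Ccr7 window and 1.08 in the cluster, each also above that of all reads.

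The tallest site of the Ccr4 window, from 114396601 to 114397100, had 148 reads of STAT3 and 387 of STAT5 (7.12 and 21.5 RPM). STAT5 thus filled nearly all of the 400 positions, and the ratio of 0.331 (0.272 to 0.400) is compressed. A second site began next to it, from 114397501 to 114397900, with 22 STAT3 and 365 STAT5 reads, 19.2 times as high with STAT5 (12.5 to 31.0). The windows of these sites were 850 bp apart, and most of the STAT3 reads of the pair lay at the first.

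Further STAT5-higher sites lay on both sides of this pair. From 114380951 to 114381550 there were 103 STAT3 and 370 STAT5 reads (0.241, 0.191 to 0.30), from 114407251 to 114407650 there were 85 and 314 (0.234, 0.182 to 0.298), from 114330951 to 114331400 there were 96 and 290 (0.286, 0.225 to 0.362), and from 114336401 to 114336900 there were 94 and 239 (0.340, 0.265 to 0.433). Each was a region with both antibodies. The site with the lowest ratio, from 114413701 to 114414150, had 2 STAT3 and 212 STAT5 reads (0.00815, 0.000981 to 0.0298), and the best 200 bp of STAT3 within it held 5. With STAT3 this site was at the level of the surroundings, where the median window of the Ccr4 locus held 3 reads.

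A group of sites inside the Ccr4 window was balanced, chosen after their values were seen. The highest window of the locus by STAT3 was at the site from 114349601 to 114350100, with 160 STAT3 and 129 STAT5 reads (1.07, 0.845 to 1.36). It was followed by the sites from 114352551 to 114352850 (64 and 60 reads), from 114355451 to 114355750 (52 and 42) and from 114356801 to 114357150 (86 and 68). On GRCm38 the coding genes next to Ccr4 are Tmppe and Glb1 on one side and Trim71 on the other, so reads in the window need not belong to Ccr4.

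**Figure D3:**
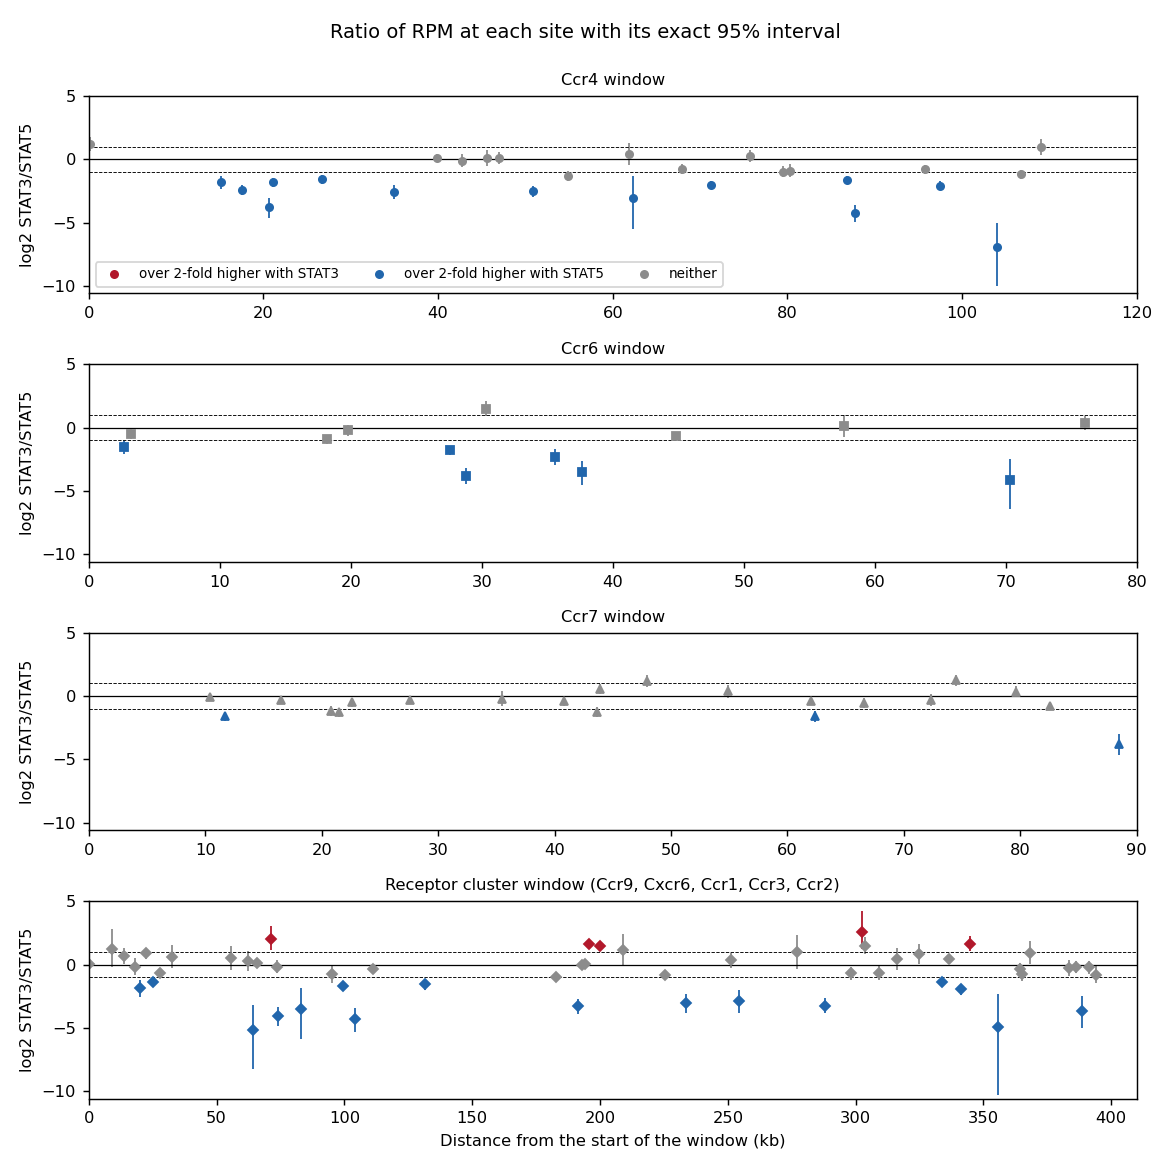
log2 of the ratio of STAT3 RPM to STAT5 RPM (y axis) at each of the 115 sites against its distance from the start of the window in kb (x axis), with the exact 95% interval of counting error as a bar. Red points are over 2-fold higher with STAT3, blue points over 2-fold higher with STAT5 and grey points neither, with dashed lines at 2-fold. Red points are seen only in the cluster, and blue points run along most of the Ccr4 window.

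CCR7 takes naive and central memory T cells into lymph nodes along CCL19 and CCL21, and is carried by T cells before they leave for tissues. Its window held the tallest site of the 4 with STAT5, and 2 of its sites were tall with both antibodies. From 98977201 to 98977750 there were 369 STAT3 and 399 STAT5 reads, and from 98966251 to 98966750 there were 369 and 385. These ranked 44th together by STAT3 reads over the genome, and 25th and 256th by STAT5 reads. Their ratios of 0.799 and 0.828 lie near the 0.864 that full positions in both libraries give, so they say little of the balance. In 400 bp they had 622 STAT3 and 655 STAT5 reads, and 553 and 589.

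Another tall site, from 99032051 to 99032750, had 262 STAT3 and 379 STAT5 reads (0.597, 0.508 to 0.701). A correction for positions already taken gave 0.312 for it, 0.369 for the site from 98977201 and 0.673 for the site from 98966251. These are values without an interval or a call, since near the ceiling the correction rests on a few empty positions, 1 of 400 with STAT5 at the site from 98977201.

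The remaining named sites of the Ccr7 window were lower, though each had more reads of either antibody than most sites of the genome. From 98961451 to 98961900 there were 92 STAT3 and 240 STAT5 reads (0.331, 0.258 to 0.423, higher with STAT5), from 98971301 to 98971650 there were 111 and 233 (0.412, 0.325 to 0.518), and from 99011801 to 99012150 there were 169 and 192 (0.761, 0.615 to 0.940). Leaning to STAT3, and chosen after their values were seen, were the sites from 99024301 to 99024650 with 173 and 63 reads (2.37, 1.77 to 3.22) and from 98997701 to 98998100 with 136 and 52 (2.26, 1.63 to 3.17). Neither interval lay wholly beyond 2-fold. The lowest ratio was at the upper end, from 99038351 to 99038700, with 14 STAT3 and 164 STAT5 reads (0.0738, 0.0395 to 0.127), which was also chosen after its values were seen.

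The Ccr7 window also had the highest median count. Over all its 200 bp windows, those at sites included, the median was 8 STAT3 and 7 STAT5 reads. It was 3 and 3 in the Ccr4 window, 3 and 2 in the Ccr6 window and 2 and 1 in the cluster. Regions were called against the mean of the surrounding 5 and 10 kb, and against the genome-wide mean alone 38 STAT3 and 36 STAT5 regions were called in place of 15 and 17. On GRCm38 the neighbours of Ccr7 are Tns4 and Igfbp4 on one side and Smarce1 and Krt222 on the other.

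The receptor cluster holds genes for receptors of different tissues. CCR9 takes T cells to the small intestine along CCL25, CXCR6 binds CXCL16, CCR1 binds CCL3 and CCL5, CCR3 is the eotaxin receptor of eosinophils, and CCR2 is the CCL2 receptor of monocytes and some effector T cells. On GRCm38 the coding genes from Ccr9 to Ccr2 run in the order Ccr9, Fyco1, Cxcr6, Xcr1, Ccr1, Ccr1l1, Ccr3 and Ccr2. Sites were not tied to single genes of the cluster here.

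Sites of the cluster were split between the antibodies more evenly than those of the Ccr4 and Ccr6 windows, with ratios above 1 at 22 and below 1 at 32. Of its 41 bins of 10 kb, 10 lay wholly on the STAT3 side of 1, 14 on the STAT5 side, and 4 held no read. The bin from 123840001 to 123850000 alone held 23.3% of the STAT3 and 15.6% of the STAT5 reads of the cluster. Without that bin, left out after its values were seen, the ratio of the cluster was 0.801 (0.779 to 0.823). This interval overlaps that of the whole Ccr7 window (0.774 to 0.819). The bin was picked for its STAT3 reads, and no bin was left out of the Ccr7 window. The comparison is therefore uneven and does not settle the order of the cluster and the Ccr7 window.

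That bin carried a row of sites whose balance changed from one to the next. The site from 123841101 to 123841500 was a STAT5-only region with 28 STAT3 and 233 STAT5 reads, 9.63 times as high with STAT5 (6.49 to 14.8). The next, from 123842951 to 123843200, had 237 STAT3 and 208 STAT5 reads (0.985, 0.814 to 1.19). After it, the site from 123844051 to 123844500 had 392 reads of STAT3 and 329 of STAT5 (18.9 and 18.3 RPM), a ratio of 1.03 (0.887 to 1.20), and ranked 3rd over the genome by STAT3 reads and 1488th by STAT5 reads. With STAT3 at 392 of 400 positions, this ratio is compressed. The correction for positions taken gave 1.96, a value without an interval that rests on the 8 empty positions of STAT3.

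The last sites of that row were higher with STAT3. The site 123845601-123845800 held 290 STAT3 reads against 81 of STAT5, a ratio of 3.09 (2.41 to 4.01), and the site from 123849551 to 123850000 had 349 and 109 reads, a ratio of 2.77 (2.23 to 3.46). Their order by STAT3 reads over the genome was 433rd and 98th. Both stayed beyond 2-fold when counted in 400 bp, where the second had 519 STAT3 and 163 STAT5 reads. Against the genome-wide mean alone, the site from 123845601 became part of a longer site centred on the taller neighbour, with a ratio of 1.03, and was not called. From the first site of the row to the last, over less than the 10 kb of the bin, the ratio went through 0.104, 0.985, 1.03, 3.09 and 2.77.

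The other sites higher with STAT3 had fewer reads of both antibodies. The site 123994501-123994950 held 111 STAT3 and 31 STAT5 reads (3.09, 2.06 to 4.77), that from 123721001 to 123721350 had 61 and 13 (4.06, 2.20 to 8.05), and that from 123952501 to 123952800 had 34 and 5 (5.88, 2.29 to 19.3). In 400 bp these ratios were 2.85, 2.96 and 3.65, and none of the 3 was then called. Their calls therefore rest on few STAT5 reads and on the counting width.

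STAT5-higher sites were found on both sides of this row. The tallest by STAT5 was the site from 123983101 to 123983950, with 164 STAT3 and 363 STAT5 reads (0.390, 0.323 to 0.471). This site was 850 bp wide, and STAT3 was highest, with 286 reads, in a window that began 450 bp below that of STAT5, so the ratio at the STAT5 summit does not hold for the whole site. The site from 123749251 to 123749750 had 122 and 349 reads (0.302, 0.244 to 0.372), and that from 123675051 to 123675500 had 81 and 183 (0.383, 0.291 to 0.50). Counted in 400 bp, the sites from 123983101 and from 123675051 had ratios of 0.436 and 0.428 and were no longer called.

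Other STAT5-higher sites had few STAT3 reads. The site 123724001-123724450 held 16 STAT3 and 228 STAT5 reads, 16.5 times as high with STAT5 (9.94 to 29.3), that from 123754001 to 123754500 had 11 and 186 (19.6 times, 10.7 to 39.9), and that from 123714051 to 123714300 had 2 and 61 (35.3 times, 9.36 to 298). At the second of these STAT3 reached 36 reads in a window 150 bp away. The neighbour whose window lay 500 bp below the first of them was a STAT3-only region, from 123723551 to 123723900, with 77 STAT3 and 74 STAT5 reads (0.899, 0.645 to 1.25), named after its values were seen.

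The rest of the named sites of the cluster were tall and called higher with neither antibody. From 123986201 to 123986650 there were 314 STAT3 and 199 STAT5 reads (1.36, 1.14 to 1.64), from 123832601 to 123833500 there were 187 and 313 (0.516, 0.428 to 0.621), from 123874951 to 123875550 there were 169 and 260 (0.562, 0.460 to 0.684), and at the lower edge of the window, from 123649901 to 123650350, there were 163 and 133 (1.06, 0.837 to 1.34). That they were not called does not show that they were equal. The site from 123832601 is the first after the long stretch without reads. It was 900 bp wide, and STAT3 was highest, with 213 reads, in a window that began 400 bp above that of STAT5. Its ratio is thus that of the STAT5 summit and not of the whole site.

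**Figure D4:**
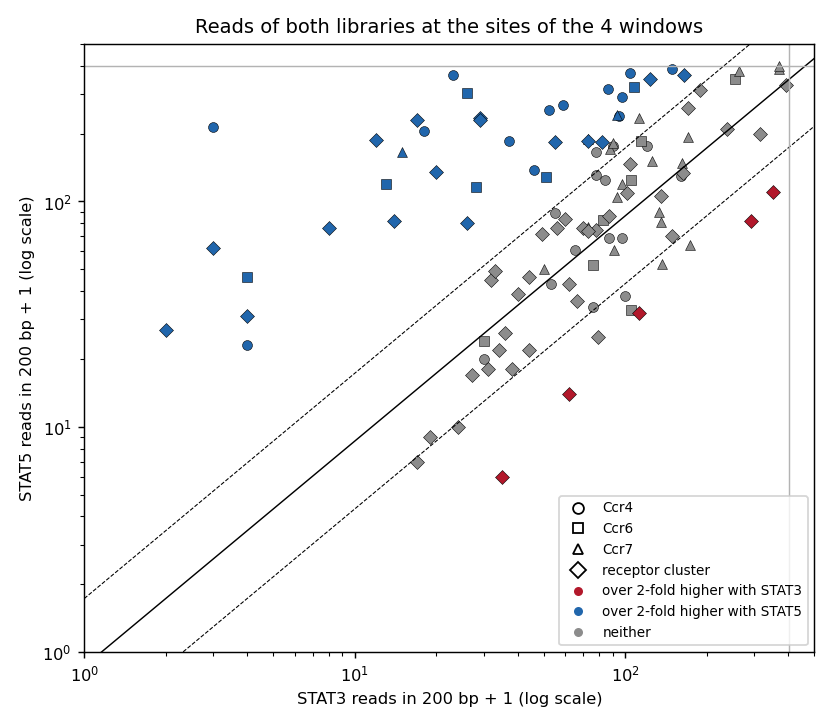
Reads of STAT3 (x axis) and STAT5 (y axis) in the same 200 bp at the 115 sites, each with 1 read added, on log scales. Marker shapes give the window and colours the call, the solid line marks equal RPM, dashed lines 2-fold, and grey lines the ceiling of 400 reads. The 5 red points all belong to the receptor cluster, and 2 points of the Ccr7 window lie near the ceiling of both libraries.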

How the data were processed

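The deposited files list aligned reads, 1 line per read, with chromosome, start, end, match descriptor, score and strand. The deposited score was 0 in every line and was not used. Reads are 25 nt long and on mm9, per the submitters' processing notes; the sources used here do not name the aligner or filters. No input or second library was analysed here. Regions were called over chromosomes 1 to 19, X and Y in each library: at least 5 reads in 200 bp, a count 4-fold or more above each of 3 means (whole genome, surrounding 5 kb, surrounding 10 kb), and a 1-sided Poisson p, adjusted by Benjamini-Hochberg over windows with a read, at or below 1e-05. Regions within 100 bp were joined, and those with over 80% of summit reads on 1 strand left out (106 STAT3 and 184 STAT5 over the genome, 0 in the windows). Regions sharing at least 1 bp were merged into sites centred on the 200 bp with the highest RPM. Ratio intervals are exact conditional (Clopper-Pearson). The rule for named sites took the 6 with the largest summed RPM in each single-gene window, 12 in the cluster, and the 5 sites most tilted to each antibody, ranked by whichever limit of the interval is closer to 1. Members, lists and rules were chosen with earlier results of these data known. The caller and ratios were tested on simulated reads with isolated sites on an even background. Such reads do not cover crowded sites or sites near the ceiling. Software was matplotlib 3.10.9, pandas 2.3.3, scipy 1.17.1 and numpy 2.4.6 under Python 3.11.15. Gene order and promoters came from RefSeq tables on GRCm38.p6.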

Additional observations from a re-analysis of the deposited data

How the results depend on the processing

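No paired analysis was possible because there is 1 library per antibody. In the order Ccr4, Ccr6, Ccr7 and cluster, the ratios of STAT3 to STAT5 became 0.361, 0.448, 0.575 and 0.637 with scaling by bins without a region, 0.537, 0.666, 0.855 and 0.947 when the median ratio of sites with both antibodies was set to 1, and 0.389, 0.548, 0.681 and 0.869 with the correction for positions taken; the first window stayed lowest and the last highest in each. Leaving out the 10 kb with most STAT3 reads, a choice made after seeing the data, gave 0.801 for the cluster, beside 0.796 for the whole Ccr7 window. Asking for 8-fold enrichment gave 31 STAT3 and 40 STAT5 regions, 54 sites, and 1 and 22 sites higher with STAT3 and STAT5. The genome-wide mean alone gave 172 STAT3 and 168 STAT5 regions and 189 sites, where the sites from 123841101 and from 123845601 joined a taller neighbour and took its ratio, 1.03. Sites higher with STAT3 numbered 3 with a shift of 75 bp, 2 counted in 400 bp, 0 with scaling by bins without a region and 10 with a limit of 1.5-fold. Counting in 400 bp lost the calls of 6 of the 37 named sites, some on each side. Sites higher with STAT5 ranged from 22 to 47 and outnumbered those higher with STAT3 under each alternative with calls; the correction for positions taken is given as values, since its own error was not computed. Beyond what each threshold or scale fixes, the cause was not tested. The ceiling of 400 reads in 200 bp limits the ratios of tall sites, and low counts limit those of sites with few reads.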
